A study of Mus musculus with 69 samples.

Results

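The interferon response genes are 37 mouse genes that type I or type II interferon is known to induce, listed by gene symbol. They hold RNA and DNA sensors, transcription factors, chemokines, the Ifit and ISG15 genes, oligoadenylate synthetases with the kinase PKR, Mx proteins and other antiviral effectors, and guanylate-binding and immunity-related GTPases. Of these, 34 had a probe set annotated to a single gene among the 18820 genes of the array, and Ifi44, Igtp and Parp9 had none. The study followed dorsal skin of mice aged 8 weeks after one application of TPA, a phorbol ester used as a tumour promoter in skin, dissolved in acetone and given to shaved skin. FVB is the inbred line FVB/N, SPR is Spret/Ei, an inbred line of another mouse species, Mus spretus, and F1 is the cross of FVB/N with Spret/Ei. RNA of whole skin was hybridised to 69 Affymetrix arrays, of which 66 carry a strain and time. FVB has 3 arrays at each of 0, 2, 6, 12, 24, 48, 72, 168 and 1008 h. F1 has 4 arrays at 0 h, 2 at each of 4, 6, 12, 24 and 72 h, 3 at 48 h, 6 at 1008 h and 1 at each of 2 and 168 h. SPR has 2 arrays at each of 0, 4, 12, 24, 48 and 1008 h and 1 at each of 2 and 6 h. The 0 h arrays are of skin labelled untreated, so the effect of TPA cannot be told apart from that of acetone or, at 1008 h, of 1008 h of age. Nothing in the labels ties arrays to separate mice, so the spread behind the p-values is one between arrays and may be technical.

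Interferons bind receptors that signal through JAK kinases to STAT proteins. Type I interferon acts mainly through a complex with IRF9 that binds the interferon-stimulated response element, and type II interferon (interferon gamma) mainly through gamma-activated sites. IRF1, itself induced by interferon gamma and by NF-kappaB, binds elements like the response element and activates many of the same genes. In skin, keratinocytes, fibroblasts and immune cells can all respond.

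All FVB arrays are labelled batch 1, while F1 and SPR lie in batches 2 and 3, so changes within a strain are compared and FVB levels are not set against the others. Keratin markers of skin (Krt5, Krt14, Krt1 and Krt10) lay at or above the 99.8th percentile of genes by mean level. The interquartile range of log2 values over genes was 3.40 to 3.89 on the assigned arrays other than SPR 12 h replicate 1 (1.39) and F1 72 h replicate 2 (2.39). A score, the mean over a gene list of each gene's log2 value minus its mean over the 66 arrays, showed further arrays apart. FVB control replicates 2 and 3 had liver marker scores of 2.21 and 2.66 against -0.66 in replicate 1, and T and NK lymphocyte scores of 0.73 and 1.06 against 0.03. Liver scores were also above 2 on FVB 12 h replicate 1 (2.99), F1 24 h replicate 1 (2.63) and FVB 24 h replicate 1 (2.09), and were 1.16 to 1.38 at FVB 1008 h. The 2 controls, which all FVB changes against 0 h share, were left out together as an alternative, and the other arrays with high liver scores were not. FVB 6 h replicate 3 had a pancreas marker score of 3.21. Its T and NK lymphocyte score was 1.71, its B lymphocyte score 1.16 and its plasmacytoid dendritic cell score 1.18. Its mean score over the members was 1.12, against 0.51 and 0.48 on the other 6 h arrays of FVB. FVB 48 h replicate 1 had a macrophage score of 2.37 and FVB 72 h replicate 3 one of 1.28.

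The start regions of 7 members are printed here as examples that hold matches to the elements named above. Each is the 250 bases before the gene's start in RefSeq annotation of GRCm38.p6, read 5′ to 3′ on the gene's strand, with capitals marking matches to the core of the response element (GAAA, any 2 bases and GAAA again, on either strand, where overlapping matches count separately), a gamma-activated site (TTCNNNGAA, which reads alike on both strands) or an NF-kappaB site. Irf1 lies at chr11:53769764-53770013 (+), Cxcl10 at chr5:92348890-92349139 (-), Gbp2 at chr3:142620413-142620662 (+), Irgm1 at chr11:48871421-48871670 (-), Ifit1 at chr19:34640639-34640888 (+), Ifit3 at chr19:34583279-34583528 (+) and Isg15 at chr4:156200819-156201068 (-).
Irf1: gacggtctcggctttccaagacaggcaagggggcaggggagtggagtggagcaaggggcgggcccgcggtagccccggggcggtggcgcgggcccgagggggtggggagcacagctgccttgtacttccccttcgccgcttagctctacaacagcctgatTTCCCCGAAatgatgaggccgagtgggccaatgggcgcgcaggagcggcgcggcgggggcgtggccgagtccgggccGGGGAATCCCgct
Cxcl10: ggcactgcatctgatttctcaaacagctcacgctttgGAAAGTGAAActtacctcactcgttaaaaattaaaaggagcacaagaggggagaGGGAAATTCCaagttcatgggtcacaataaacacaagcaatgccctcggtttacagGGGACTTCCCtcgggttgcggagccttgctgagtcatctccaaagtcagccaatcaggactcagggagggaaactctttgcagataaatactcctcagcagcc
Gbp2: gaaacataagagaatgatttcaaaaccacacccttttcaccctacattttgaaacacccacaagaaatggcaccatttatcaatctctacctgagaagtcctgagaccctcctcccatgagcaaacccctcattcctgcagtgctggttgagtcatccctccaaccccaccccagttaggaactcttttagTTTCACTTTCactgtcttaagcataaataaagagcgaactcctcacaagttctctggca
Irgm1: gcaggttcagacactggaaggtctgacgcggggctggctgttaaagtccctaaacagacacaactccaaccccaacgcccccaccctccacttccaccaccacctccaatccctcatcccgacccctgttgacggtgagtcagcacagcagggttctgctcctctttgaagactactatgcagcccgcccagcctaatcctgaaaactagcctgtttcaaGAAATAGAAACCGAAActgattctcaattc
Ifit1: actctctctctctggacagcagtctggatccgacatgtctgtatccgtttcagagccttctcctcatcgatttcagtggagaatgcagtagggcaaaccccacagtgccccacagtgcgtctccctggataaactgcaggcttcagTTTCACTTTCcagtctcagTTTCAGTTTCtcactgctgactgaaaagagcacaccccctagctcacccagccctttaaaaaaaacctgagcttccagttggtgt
Ifit3: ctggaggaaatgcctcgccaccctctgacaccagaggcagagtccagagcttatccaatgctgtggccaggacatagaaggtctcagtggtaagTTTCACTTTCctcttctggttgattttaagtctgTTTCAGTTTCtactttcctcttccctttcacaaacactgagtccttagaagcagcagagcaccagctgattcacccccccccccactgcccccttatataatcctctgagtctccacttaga
Isg15: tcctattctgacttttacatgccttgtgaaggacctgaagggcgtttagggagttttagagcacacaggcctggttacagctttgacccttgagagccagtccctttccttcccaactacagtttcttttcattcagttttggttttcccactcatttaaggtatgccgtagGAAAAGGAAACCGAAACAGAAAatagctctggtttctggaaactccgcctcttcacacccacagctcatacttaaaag

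The printed Irf1 window held one gamma-activated site and one NF-kappaB site and no response element core, and a second RefSeq start window of Irf1, at chr11:53770223-53770472 (+), held 0 matches to any of the motifs. Cxcl10 held 1 core and 2 NF-kappaB sites. Gbp2 held 1 core, Irgm1, Ifit1 and Ifit3 held 2 each, and Isg15 held 3 that overlap. The windows of Cxcl9, Ifih1, Irf9, Xaf1, Oasl2 and Cmpk2, which were also called in the results below, are not printed and held 0 matches. RefSeq start regions were matched for 25 of the 34 measured members, in 30 windows. The core was in 12 of these 30 windows (40.0%), against 2.98% of 32851 windows of the same length over all genes. A gamma-activated site was in 13.3% against 7.02%, and an NF-kappaB site in 10.0% against 3.9%. These are matches of letters in a short window and no measure of binding.

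In FVB, Irf1, Cxcl10 and a few other members rose in the first 6 h, few members were called from 12 to 168 h, and most fell at 1008 h. The median log2 change of the 34 was 0.58 at 6 h, -0.20 at 24 h and -1.13 at 1008 h. A gene is called when its adjusted p, from one limma model of all genes with Benjamini-Hochberg adjustment, is under 0.05 and its log2 change is at least 1 in size. At 2 h, 3 members rose, where 3.6% of all genes did, and 3 fell, where 3.08% did, which is 8.82% of the members each way. At 6 h, 6 rose (17.6% of the members, 6.45% of all genes) and none fell. At 12 h 2 were lower (4.94% of all genes), at 24 h 1 was lower (2.64%), at 48 h 1 was higher (3.1%) and at 72 h 2 were lower (0.935%), so the shares from 12 to 48 h were close to those of all genes. At 168 h limma called none (0.383% of all genes in either direction), with 2 lower at an unadjusted p under 0.05. At 1008 h it called 19 lower and none higher. Over all times the moderated F test of limma called 30 members in FVB (50.9% of all genes), 15 in F1 (26.7%) and 24 in SPR (35.3%). All changes of a strain share its 0 h arrays.

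**Figure D1:**
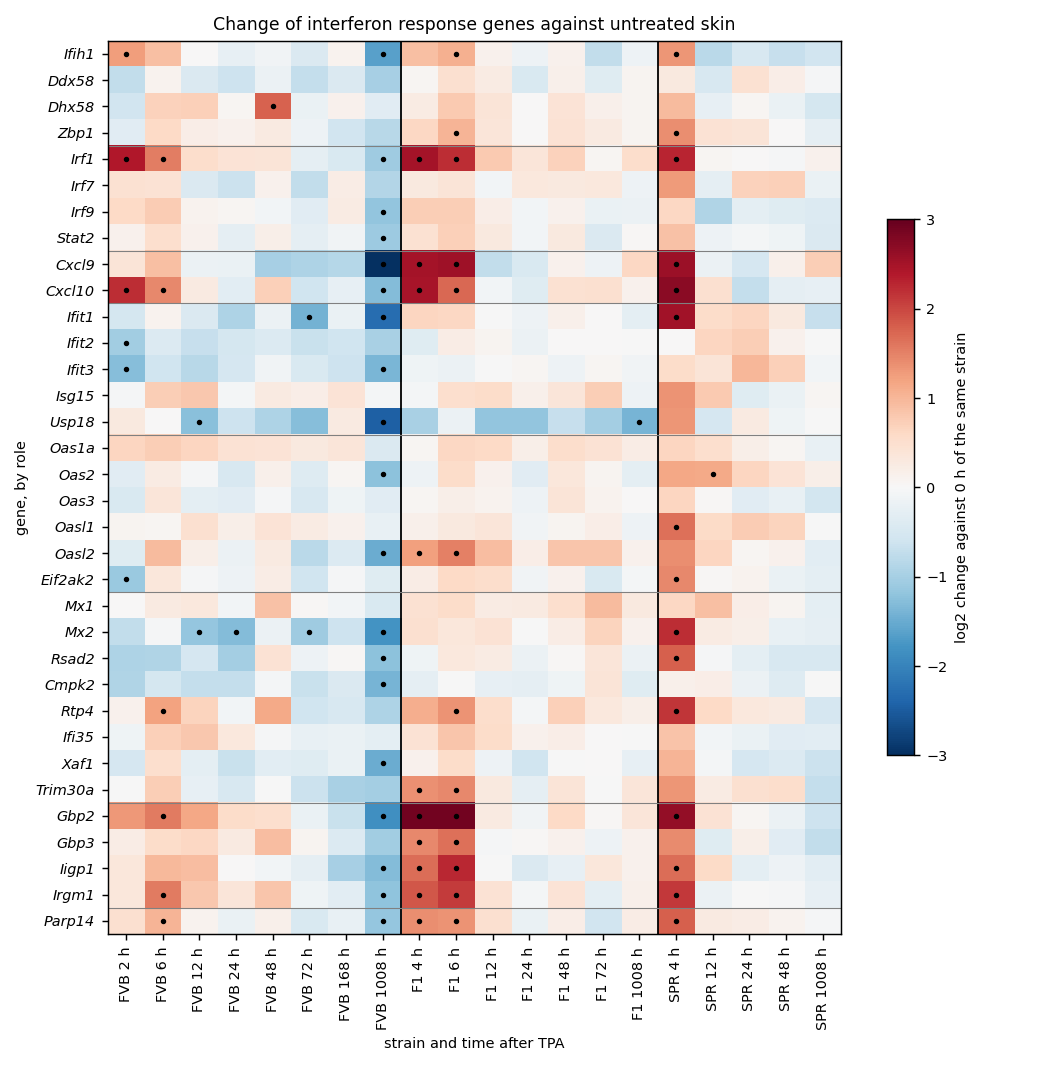
Log2 change of the 34 measured interferon response genes (rows, grouped by role) against 0 h of the same strain, for each time with 2 or more arrays (columns). Colours run from -3 to 3, and dots mark calls: early rises are in all 3 strains, and the block of 19 falls is in FVB at 1008 h.

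Irf1, the transcription factor described above, was among the members that rose at 2 h in FVB. Its log2 value was 7.47, 7.47 and 7.69 in untreated skin and 9.79, 10.16 and 9.90 at 2 h, so the groups did not overlap. The change was 2.40 ± 0.31 (SE, 3 arrays a group, adjusted p = 2.4e-07). At 6 h Irf1 stood at 9.17, 9.11 and 8.94, a change of 1.53 ± 0.31 (adjusted p = 2.5e-04). Irf1 is the one member with a second probe set, and that probe set disagreed: its change was 0.69 at 2 h and 0.14 at 6 h, and it passed neither call. The second probe set passed no call elsewhere either, with 0.38 in F1 at 4 h, 0.32 in F1 at 6 h, 0.59 in SPR at 4 h, -0.48 in FVB at 1008 h, -0.20 there against 24 h and 0.26 for F1 minus FVB at 1008 h.

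Cxcl10, a chemokine that draws activated T cells, had 5.89, 6.22 and 6.18 in untreated FVB skin and 8.33, 8.50 and 8.13 at 2 h. The change was 2.22 ± 0.44 (adjusted p = 3.4e-04), and at 6 h it was 1.44 ± 0.44 (adjusted p = 0.013). Ifih1, the RNA sensor MDA5, moved from 8.15, 8.06 and 7.73 to 8.77, 9.58 and 9.36 at 2 h, a change of 1.26 ± 0.26 (adjusted p = 5.6e-04). In both genes all arrays at 2 h lay above all untreated arrays. Without control replicates 2 and 3, Ifih1 at 2 h (1.09 ± 0.37) and Cxcl10 at 6 h (1.65 ± 0.64) were not called, with changes of similar size and larger errors from the 1 control left.

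The 3 members that fell at 2 h are antiviral effectors. Ifit3, which binds viral RNA together with Ifit1, went from 6.21, 6.52 and 6.47 to 5.40, 4.76 and 5.18, a change of -1.29 ± 0.33 (adjusted p = 0.0049). Eif2ak2, the kinase PKR that blocks translation on sensing double-stranded RNA, went from 6.54, 6.32 and 6.20 to 5.68, 4.88 and 5.19, a change of -1.10 ± 0.23 (adjusted p = 4.7e-04). Ifit2, a relative of Ifit3, went from 5.73, 5.87 and 5.55 to 4.78, 4.63 and 4.60, a change of -1.04 ± 0.32 (adjusted p = 0.024). None of these groups overlapped. The count of 3 went to 0 without FVB 2 h replicate 2, to 1 when arrays were centred on their medians, which moved the median of all genes at 2 h from 0.02 to 0.20, and to 1 without control replicates 2 and 3. Over all members, 9 lay wholly above and 11 wholly below the untreated arrays at 2 h, where 20.4% and 19.8% of all genes did. The Langerhans and dendritic cell score was 0.48 to 0.62 at 2 h against -0.12 to 0.16 untreated. The neutrophil score was -0.75 to 0.35 against -1.13 to -0.90. Lower without overlap were the plasmacytoid dendritic cell score (-0.11 to -0.03 against 0.07 to 0.40) and the endothelial score (-0.25 to -0.04). The part of these cells was not tested.

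At 6 h 2 of the 4 measured GTPases were called. Gbp2, a guanylate-binding protein that attacks vacuoles of intracellular microbes, had 7.08, 7.10 and 7.32 in untreated skin and 8.67, 8.76 and 8.76 at 6 h. Its change was 1.56 ± 0.47 (adjusted p = 0.012). Irgm1, an immunity-related GTPase that regulates autophagy of such vacuoles, went from 6.58, 6.84 and 7.07 to 8.16, 8.36 and 8.67. Its change was 1.57 ± 0.37 (adjusted p = 0.0011), and in both genes every 6 h array was above every untreated one.

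Parp14, an ADP-ribosyltransferase, went from 7.32, 7.35 and 7.35 to 8.21, 8.33 and 8.50 at 6 h, a change of 1.01 ± 0.30 (adjusted p = 0.011). Rtp4, an inducible antiviral protein, changed by 1.21 ± 0.43 (adjusted p = 0.034), with replicate 3 (7.97) above the other two 6 h arrays (6.62 and 6.83). Without FVB 6 h replicate 3, Parp14 (0.93) and Rtp4 (0.80, adjusted p = 0.24) were not called. The count of 6 was 4 without 3 FVB arrays with high pancreas or macrophage scores (6 h replicate 3, 48 h replicate 1 and 72 h replicate 3). Without control replicates 2 and 3, which leaves 1 control, Gbp2 and Parp14, at changes of 1.65 and 1.03, were among the members not called. At 6 h, 18 members lay wholly above the untreated arrays (21.9% of all genes). Of the 11 neutrophil markers measured, 7 also rose at 6 h (6.45% of all genes). Their score was 0.56 to 1.36 against -1.13 to -0.90 in untreated skin. The Langerhans and dendritic cell score was also higher without overlap (0.24 to 0.37 against -0.12 to 0.16). The keratinocyte score (-0.93 to -0.13 against -0.08 to 0.20) and the fibroblast score (-0.99 to -0.01 against 0.16 to 0.92) were lower without overlap. In RNA of whole skin, fewer or more cells of a type and less or more RNA per cell cannot be told apart, and the part of these cells in the members' change was not tested.

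Between 12 and 72 h few members were called in FVB. Usp18, a protease that removes ISG15 and dampens type I interferon receptor signalling, fell by 1.25 at 12 h (adjusted p = 0.013), from 7.33, 7.21 and 7.23 to 6.06, 6.11 and 5.84. Mx2, a dynamin-like GTPase that restricts viruses, fell by 1.16 at 12 h (adjusted p = 0.0063) and by 1.31 at 24 h (adjusted p = 0.0043), from 5.39, 5.24 and 5.83 to 4.21, 4.20 and 4.11 at 24 h. The Usp18 call ended without FVB 12 h replicate 3 (adjusted p = 0.051). The Mx2 call at 12 h ended without FVB 12 h replicate 2 (change -0.84) or control replicate 3. Without control replicates 2 and 3, none of the members called from 12 to 72 h kept its call, while Usp18 at 12 h (-1.33 ± 0.55), Mx2 at 24 h (-1.21 ± 0.45) and Dhx58 at 48 h (1.60 ± 0.51) changed little in size. At 72 h Ifit1 (-1.42, adjusted p = 0.047) and Mx2 (-1.07, adjusted p = 0.050) were at the edge of the threshold, and with 1 array left out in turn their adjusted p ran up to 0.27 and 0.36.

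Dhx58, the RNA sensor LGP2, was the one member that rose at 48 h in FVB. Its values were 7.71, 5.50 and 7.96 against 5.46, 5.30 and 5.11 in untreated skin, so replicates 1 and 3 were high and replicate 2 was near the controls. The change was 1.77 ± 0.35 (adjusted p = 9.2e-04). FVB 48 h replicate 1 was high in most members: its mean member score was 1.51, against -0.36 and -0.08 in the other two arrays, and Gbp2 read 9.99 there against 6.60 and 6.40. The part of its macrophage markers in this was not tested.

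**Figure D2:**
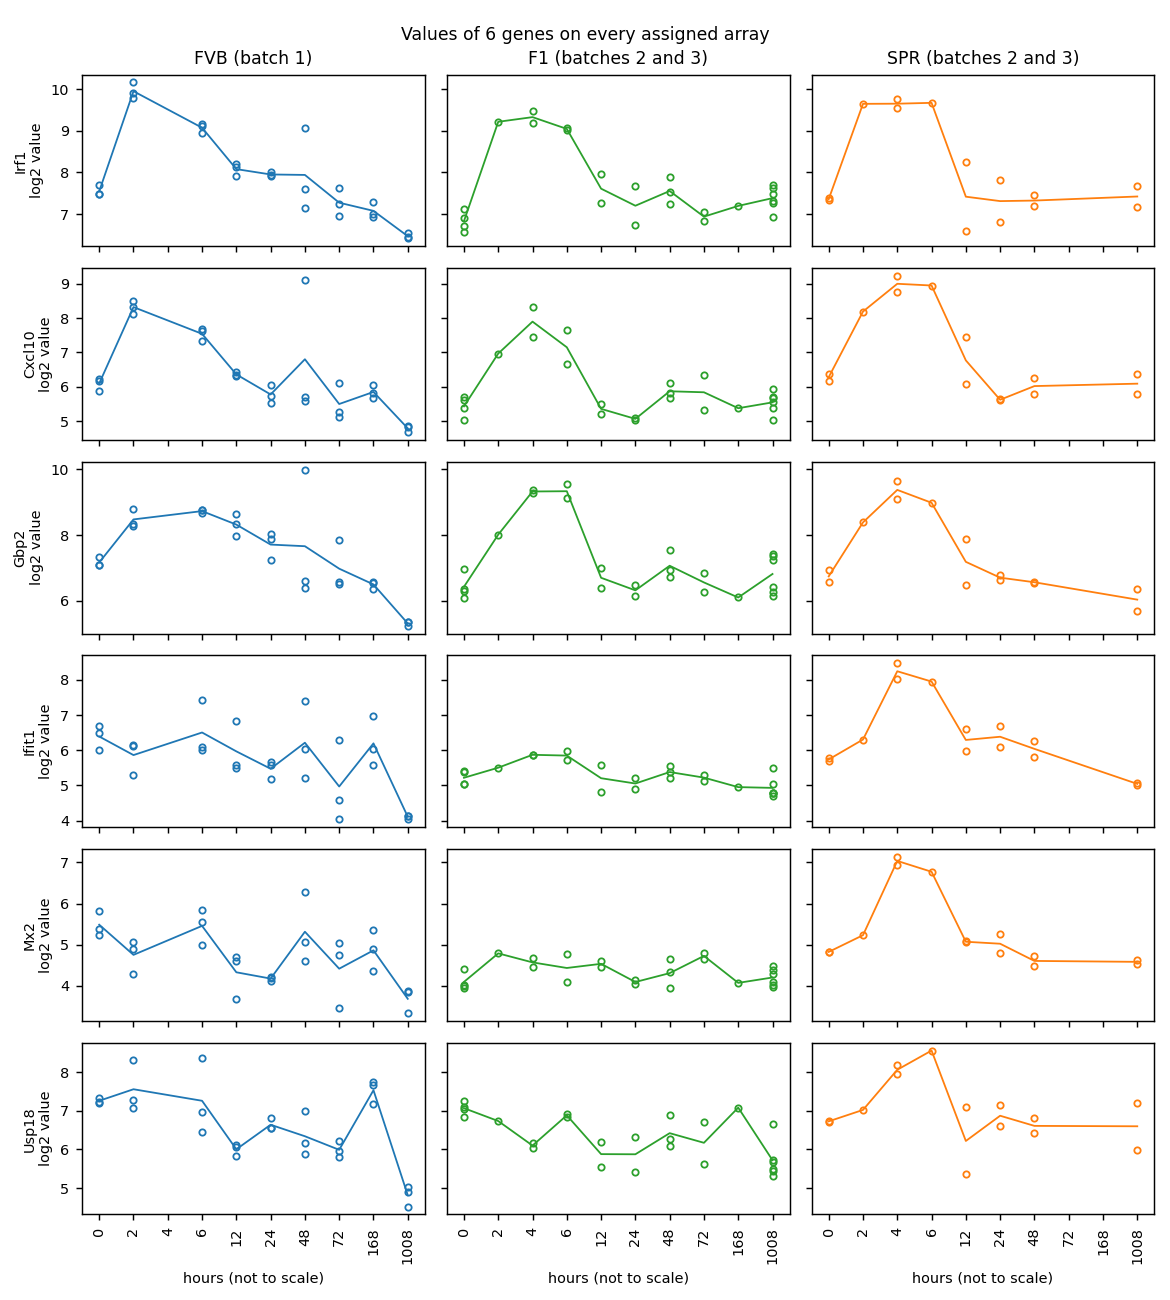
Log2 values of Irf1, Cxcl10, Gbp2, Ifit1, Mx2 and Usp18 (rows) on each assigned array by time in hours, not to scale, in FVB, F1 and SPR (columns), with lines through the means. Irf1, Cxcl10 and Gbp2 rise early in all 3 strains, while Ifit1, Mx2 and Usp18 are high at 4 and 6 h in SPR and low at 1008 h in FVB.

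At 1008 h in FVB all 34 members lay below the untreated level, with a median log2 change of -1.13 against -0.04 over all genes. The 19 called members were 55.9% of those measured, where 3.92% of all genes were called lower, and came from every role. In 28 members all 3 arrays at 1008 h lay below all untreated arrays (23.6% of all genes), in 27 they lay below all 24 h arrays (15.4%) and in 22 below all 168 h arrays (21.8%).

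Cxcl9, a chemokine induced mainly by interferon gamma, was lowest: it read 7.36, 7.67 and 7.64 in untreated skin and 4.25, 4.14 and 5.13 at 1008 h. The change was -3.05 ± 0.65 (adjusted p = 6.6e-04). Usp18 read 4.90, 4.52 and 5.04 at 1008 h against its untreated values given above, a change of -2.44 ± 0.38 (adjusted p = 7.8e-06). Ifit1 went from 6.01, 6.48 and 6.69 to 4.14, 4.05 and 4.13, a change of -2.28 ± 0.42 (adjusted p = 9.1e-05). In each of these genes the groups were far apart, with more than 1 log2 unit between the nearest arrays.

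Among the GTPases, Gbp2 fell to 5.25, 5.35 and 5.35 (-1.85 ± 0.47, adjusted p = 0.0045) and Irgm1 to 5.64, 5.60 and 5.64 (-1.20 ± 0.37, adjusted p = 0.017). Among the antiviral effectors, Mx2 fell to 3.84, 3.87 and 3.34 (-1.80 ± 0.32, adjusted p = 5.7e-05). Xaf1, an interferon-induced protein that promotes cell death, went from 6.62, 6.55 and 6.53 to 5.62, 4.54 and 5.08 (-1.48 ± 0.30, adjusted p = 3.7e-04). The arrays at 1008 h were the low ones in each of these genes, without overlap.

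Of the sensors only Ifih1 was called: it read 6.32, 6.30 and 6.43 at 1008 h, a change of -1.63 ± 0.26 (adjusted p = 1.2e-05). Of the oligoadenylate synthetases, which make the activator of RNase L, Oas2 went from 5.51, 5.27 and 5.45 to 3.98, 4.15 and 4.40 (-1.23 ± 0.33, adjusted p = 0.0074). Oasl2, a related protein, went from 6.64, 7.07 and 7.44 to 5.43, 5.59 and 5.67 (-1.49 ± 0.43, adjusted p = 0.012) and had an adjusted p of 0.064 without control replicate 3. Irf9, the DNA-binding subunit of the type I complex, went from 8.66, 8.64 and 8.70 to 7.59, 7.34 and 7.54 (-1.18 ± 0.27, adjusted p = 0.0016). Parp14 went to 6.21, 6.01 and 6.29 (-1.17 ± 0.30, adjusted p = 0.0051). The other called members were Cmpk2, Ifit3, Cxcl10, Iigp1, Rsad2, Stat2 and Irf1, between -1.40 and -1.08.

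Without control replicates 2 and 3 the 1008 h count was 6, with Usp18, Ifit1, Mx2, Ifih1, Cmpk2 and Xaf1 still called. With that 1 control, Cxcl9 (-2.85 ± 0.93), Gbp2 (-1.76 ± 0.68), Irf9 (-1.17 ± 0.39) and Parp14 (-1.15 ± 0.44) were not called at changes close to those above, and Iigp1 moved to -0.64. With any 1 array left out the count was 14 to 18. With 1 array left out, Cxcl10 was called in 0 of 6 fits, Rsad2 in 1 and Iigp1 in 2, and Oasl2, Irgm1 and Stat2 lost their calls only without control replicate 3. Against 24 h, which does not use the untreated arrays, 7 members were lower and none higher (0.691% of all genes were lower). These were Cxcl9 (-2.85 ± 0.65), Gbp2 (-2.39 ± 0.47), Usp18 (-1.82 ± 0.38), Irgm1 (-1.58 ± 0.37), Irf1 (-1.48 ± 0.31), Ifih1 (-1.39 ± 0.26) and Irf9 (-1.24 ± 0.27), and the count was 7 with any 1 array left out. Against 168 h, a comparison added after seeing the data, 10 were lower (2.79% of all genes), among them Usp18 (-2.71 ± 0.38) and Ifit1 (-2.09 ± 0.42).

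**Figure D3:**
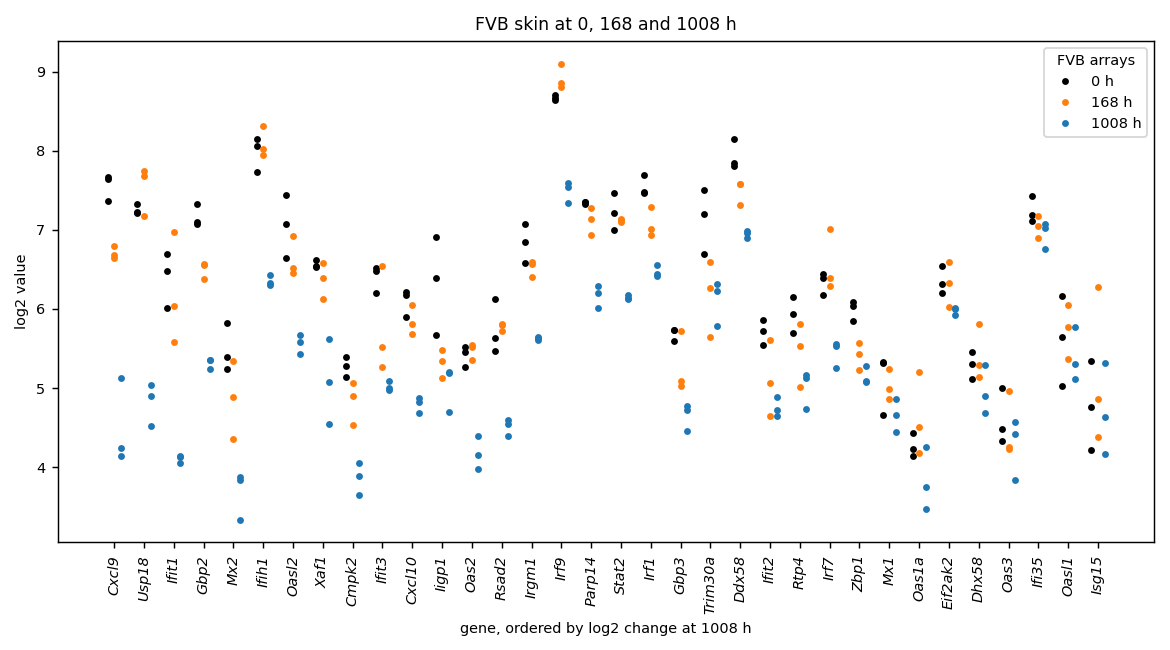
Log2 values of the 34 members on the FVB arrays at 0, 168 and 1008 h (3 each), ordered by the change at 1008 h. The 1008 h points lie below all 0 h points in 28 members, and Isg15 and Oasl1 at the right overlap.

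Other lists also moved at 1008 h in FVB, where 3.92% of all genes were called lower. Of 16 measured genes of antigen presentation, 4 fell: Nlrc5 (-1.63), Tap1 (-1.39), Psmb10 (-1.12) and H2-K1 (-1.05). Of 41 measured interferon-induced genes outside the members, 7 fell, among them Herc6 (-1.75) and Trim21 (-1.43). Of 11 measured T and NK lymphocyte markers, 8 fell, among them Cd3e (-1.96) and Nkg7 (-1.77), and their score was -0.82 to -0.65 against 0.03 to 1.06 in untreated skin. Of 11 neutrophil markers 4 rose and 2 fell, and their score was higher, at 0.16 to 0.64 against -1.13 to -0.90. The Langerhans and dendritic cell score was -0.35 to -0.20 against -0.12 to 0.16, and the plasmacytoid dendritic cell score -0.36 to -0.15 against 0.07 to 0.40. The part of these cells in the members' fall was not tested.

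In F1, 10 members rose at 4 h (29.4% of the members, 5.46% of all genes) and 13 at 6 h (38.2% of the members, 5.44% of all genes), and none fell. At 4 h 21 members lay wholly above the untreated arrays (25.2% of all genes) and 2 wholly below (25.3%), and at 6 h 27 lay above (25.8%). All 4 measured GTPases and both chemokines rose at both times, while none of the 5 Ifit and ISG15 genes was called. Gbp2 read 6.97, 6.09, 6.36 and 6.29 in untreated F1 skin, 9.37 and 9.28 at 4 h, and 9.54 and 9.13 at 6 h. Its change was 2.89 ± 0.50 at 4 h (adjusted p = 2.8e-05) and 2.90 ± 0.50 at 6 h (adjusted p = 2.9e-05). Irf1 read 7.12, 6.58, 6.90 and 6.72 untreated and 9.18 and 9.48 at 4 h, a change of 2.50 ± 0.33 (adjusted p = 2.8e-07), against 0.38 in its second probe set. In both genes the 4 h arrays lay more than 2 log2 units above the highest untreated one.

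Cxcl10 in F1 changed by 2.46 ± 0.47 at 4 h (adjusted p = 1.1e-04), with 7.46 and 8.34 against 5.62, 5.03, 5.39 and 5.69. Irgm1 changed by 1.86 ± 0.39 (adjusted p = 3.7e-04), with 8.29 and 8.15 against 6.38, 6.16, 6.41 and 6.49. Iigp1, another immunity-related GTPase, changed by 2.27 ± 0.45 at 6 h (adjusted p = 2.1e-04), with 8.15 and 7.90 against 6.02, 5.54, 5.82 and 5.64. Cxcl9 (2.49), Gbp3 (1.43), Parp14 (1.39), Trim30a (1.37) and Oasl2 (1.22) were also called at 4 h, and Ifih1 (1.07), Rtp4 (1.36) and Zbp1 (1.03) were called in addition at 6 h. With 1 array left out, Oasl2 was called in 0 of 6 fits at 4 h, and Zbp1 and Rtp4 in 1 of 6 at 6 h. The 4 h count was 6 without F1 4 h replicate 1, 4 without replicate 2 and 2 in batch 2 alone. The 6 h count was 4 without F1 6 h replicate 2 and 2 in batch 2 alone. Of the 11 neutrophil markers, 4 rose at 4 h and 5 at 6 h in F1 (5.46% and 5.44% of all genes). Their score was 0.22 to 0.36 at 4 h against -1.26 to -0.84 untreated. At 4 h the Langerhans and dendritic cell score (0.30 to 0.44 against -0.22 to -0.01) and the plasmacytoid dendritic cell score (0.15 to 0.25 against -0.27 to -0.17) were also higher without overlap. So were the B lymphocyte score (-0.12 to 0.41 against -0.39 to -0.20) and the T and NK lymphocyte score (0.16 to 0.38 against -0.18 to 0.15). The liver marker score was higher too (0.43 to 0.61 against -0.75 to -0.12). The keratinocyte score was lower (-0.18 to -0.03 against 0.28 to 0.46). At 6 h the macrophage score was -0.13 to 0.12 against -0.81 to -0.27 untreated. The endothelial score was 0.49 to 0.50 against -0.36 to 0.06. Both were higher without overlap at 6 h but not at 4 h, and the keratinocyte score was again lower (-0.74 to -0.07). The part of these cells was not tested.

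From 12 to 72 h limma called no member in F1 (4.94%, 1.89%, 1.39% and 1.99% of all genes at 12, 24, 48 and 72 h), with 5, 1, 2 and 3 at an unadjusted p under 0.05. At 1008 h Usp18 alone was lower (0.287%). It read 6.85, 7.11, 7.26 and 7.06 untreated and 5.45, 5.32, 5.72, 5.50, 5.68 and 6.66 at 1008 h, so replicate 6 was high and all 6 arrays lay below the controls. The change was -1.38 ± 0.30 (adjusted p = 0.0073), and without F1 control replicate 2 the adjusted p was 0.052.

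In SPR at 4 h all 34 members lay above the untreated level, with a median log2 change of 1.34 against 0.00 over all genes. The call was passed by 15 members, all higher (44.1% of the members, 2.57% of all genes), and 32 members lay wholly above the untreated arrays (27.5%). Cxcl10 read 6.18 and 6.38 untreated and 8.77 and 9.22 at 4 h, a change of 2.72 ± 0.54 (adjusted p = 6.8e-04). Ifit1 read 5.69 and 5.79 against 8.47 and 8.02, a change of 2.51 ± 0.51 (adjusted p = 8.5e-04). Mx2 read 4.82 and 4.83 against 7.13 and 6.94, a change of 2.21 ± 0.39 (adjusted p = 1.3e-04). In each gene the arrays of a group were closer to each other than to the other group.

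Irf1 in SPR changed by 2.29 ± 0.38 (adjusted p = 6.4e-05), with 7.38 and 7.34 against 9.55 and 9.75, and by 0.59 in its second probe set, which was not called. Eif2ak2 changed by 1.43 ± 0.28 (adjusted p = 4.3e-04), with 6.09 and 6.13 against 7.56 and 7.54. The other called members were Gbp2 (2.63), Cxcl9 (2.57), Rtp4 (2.14), Irgm1 (2.11), Parp14 (1.80), Rsad2 (1.79), Iigp1 (1.68), Oasl1 (1.65), Zbp1 (1.40) and Ifih1 (1.32). With 1 array left out, Cxcl9, Rsad2, Iigp1 and Zbp1 were called in 0 of 4 fits, Rtp4, Oasl1 and Ifih1 in 2, and Gbp2 was not called without SPR 4 h replicate 2 (adjusted p = 0.058). The count was 9 without SPR 0 h replicate 1, 8 without SPR 4 h replicate 1, 25 with arrays centred on their medians and 0 when SPR was fitted alone, where it has fewer arrays to estimate the spread. In SPR at 4 h 4 of the 11 neutrophil markers rose (2.57% of all genes). Their scores were 0.53 to 0.95 against -0.72 to -0.66 untreated. The B lymphocyte score was 0.45 to 1.51 against -0.20 to 0.02, with 0 of 5 markers called. The T and NK lymphocyte score (0.11 to 0.22 against -0.14 to -0.12) and the Langerhans and dendritic cell score (0.38 to 0.64 against 0.28 to 0.29) were also higher. So was the liver marker score (0.24 to 0.42 against -0.41 to -0.21). The keratinocyte (-0.12 to 0.10 against 0.16 to 0.24), fibroblast (-0.20 to 0.35 against 0.46 to 0.49) and endothelial scores (-0.49 to -0.10 against -0.08 to -0.06) were lower. The part of these cells was not tested.

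The single SPR array at 6 h had 23 of 34 members at least 1 log2 unit above the untreated mean (4.49% of all genes), but it lies in batch 3 and the controls in batch 2, and it has no test. The single arrays at 2 h had 3 such members in SPR (1.91%) and 5 in F1 (5.18%), and the single F1 array at 168 h had 0 (0.191%). At 12 h in SPR, Oas2 alone was called (1.14, with 3.1% of all genes higher), and it was not called without the 2 narrow arrays. At 24, 48 and 1008 h limma called no member in SPR (0.26%, 0.207% and 0% of all genes), with 1, 1 and 0 at an unadjusted p under 0.05.

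Comparing the 4 h changes, several antiviral members were higher in SPR than in F1, but limma called none of the 34 differences (0.00531% of all genes), with 8 at an unadjusted p under 0.05. Usp18 read 6.17 and 6.03 in F1 at 4 h, below its untreated F1 values of 6.85, 7.11, 7.26 and 7.06. In SPR it read 7.94 and 8.18 at 4 h, above its untreated values of 6.72 and 6.73. The difference of changes, to which the lower level in F1 adds, was 2.30 ± 0.62 (95% interval 1.06 to 3.54, adjusted p = 0.57). For Ifit1 it was 1.86 ± 0.67 (0.50 to 3.22) and for Mx2 1.74 ± 0.52 (0.70 to 2.78). Untreated SPR and F1 skin also differed in no called member (0.239%; 5 at an unadjusted p under 0.05). SPR was the higher in 31 of 34, and sequence differences of Spret/Ei under the probes could change hybridisation, which was not tested.

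**Figure D4:**
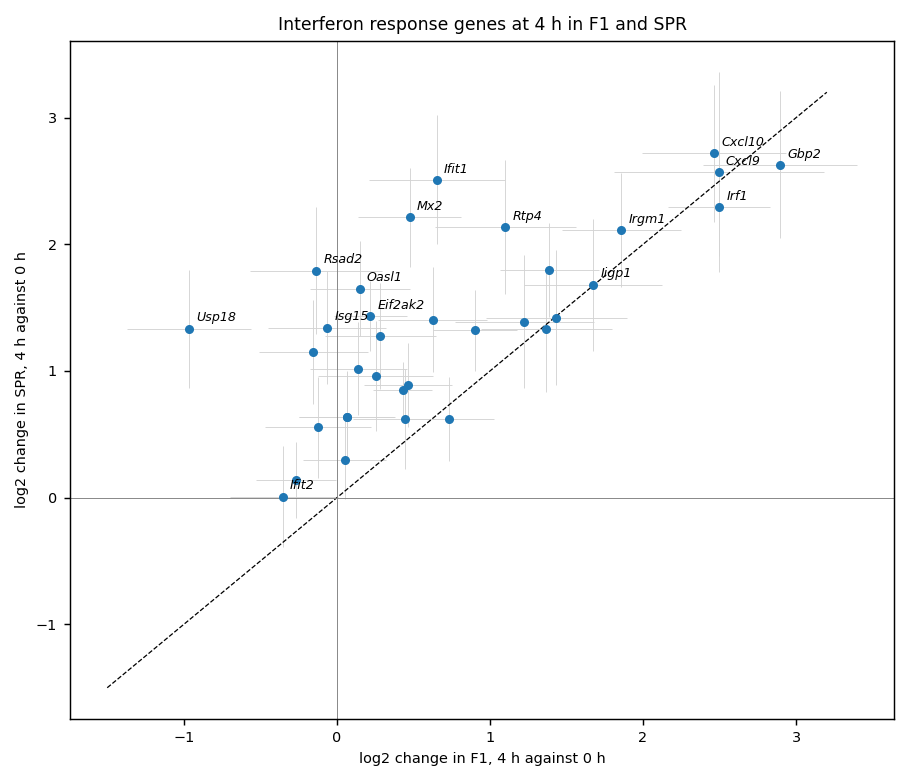
Log2 change at 4 h against 0 h in F1 (horizontal) and SPR (vertical) for the 34 members, with standard errors of the model and the line of equal change. Gbp2, Cxcl9, Cxcl10 and Irf1 lie near the line, and Usp18, Rsad2, Ifit1, Mx2 and Oasl1 lie above it, with no called difference.

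At 1008 h the change in F1 differed from that in FVB for 6 members, all less negative or higher in F1 (0.526% of all genes). The difference was 3.67 ± 0.83 for Cxcl9 (adjusted p = 0.0097), 1.92 ± 0.41 for Mx2 (adjusted p = 0.0057) and 1.47 ± 0.33 for Ifih1 (adjusted p = 0.010), and these were called with any 1 array left out. It was 2.21 for Gbp2, 2.00 for Ifit1 and 1.61 for Irf1, which were called in 3, 5 and 12 of the 16 fits with 1 array left out. The count was 3 without FVB control replicate 2 or 3, or without FVB 1008 h replicate 1 or 3, and 0 without both of those controls, where the differences were 3.47 for Cxcl9, 1.82 for Mx2 and 1.64 for Ifih1. SPR differed from FVB in Cxcl9 (3.78 ± 1.03) and Usp18 (2.43 ± 0.61) at 1008 h (0.664% of all genes higher) and in Mx2 at 12 h (1.40 ± 0.50, with 3.53% of all genes higher). With 1 array left out these were called in 1, 5 and 4 of 10 fits, and Mx2 was not called without the 2 narrow arrays. Between F1 and FVB limma called no member at 6, 12, 24, 48 or 72 h (0%, 0%, 0.0106%, 0.0691% and 0.361% of all genes), with 2, 1, 1, 1 and 5 at an unadjusted p under 0.05. Between SPR and FVB it called none at 24 or 48 h (0.0106% and 0.143%), with 7 and 1 at an unadjusted p under 0.05. Between SPR and F1 it called none at 12, 24, 48 or 1008 h (5.9%, 0%, 0% and 0%), with 3, 2, 1 and 1 at an unadjusted p under 0.05. Over all shared times, the F test of the difference called 4 members between F1 and FVB (1.88% of all genes), 8 between SPR and FVB (20.5%) and 0 between SPR and F1 (0.0106%). Strain and batch cannot be told apart in the differences from FVB.

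Of 13 measured interferon and receptor genes, none was called in FVB at 2 or 6 h or in SPR at 4 h, and in F1 the receptor chain Ifnar2 rose at 4 h (1.34 ± 0.40). The mean levels of Ifnb1, Ifna4, Ifne, Ifnk, Ifng and Ifnab lay between the 5.87th (Ifnb1) and 26.5th (Ifnab) percentile of genes. A change may go unseen in probe sets this dim, so the lack of calls does not show that no interferon was induced. Ifnb1 changed by 0.70 ± 0.23 in FVB at 2 h (adjusted p = 0.032), under the fold that a call needs. Ifnl2, an interferon lambda with a close copy from which a probe set may not separate it, rose in FVB at 12 h (1.05 ± 0.30, adjusted p = 0.0088), from 5.89, 5.70 and 5.34 to 6.62, 6.84 and 6.63. In F1 it read 5.59 and 5.35 at 12 h against 5.75, 5.70, 5.70 and 5.22 untreated. In SPR it read 7.06 on the narrow 12 h array and 5.62 on the other, against 5.73 and 5.80 untreated.

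Of 16 measured genes of interferon signalling and its feedback, 6 rose in FVB at 2 h, 6 at 6 h, 7 in F1 at 4 h and 4 in SPR at 4 h (all genes: 3.6%, 6.45%, 5.46% and 2.57%). Socs3, an inhibitor of JAK signalling that many cytokines induce, rose by 3.41 ± 0.29 in FVB at 2 h, 2.63 ± 0.31 in F1 and 2.56 ± 0.35 in SPR at 4 h. Jak2, a kinase of the interferon gamma receptor, rose by 1.86 in both FVB at 2 h and SPR at 4 h. Among 15 genes of nucleic acid sensing, 3 rose in FVB at 2 h (3.6% of all genes): the adaptor Myd88 (1.92 ± 0.35), the exonuclease Trex1 (1.55 ± 0.26) and the kinase Tbk1 (1.08 ± 0.26).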

How the data were processed

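Values are log2 expression per probe set that the authors deposited, made with RMA per the submitters' processing notes; whether RMA ran on all batches together is not stated there. The table holds 35556 probe sets; 21218 were annotated to 1 gene symbol, 1881 to several and 12457 to none. Each of 18820 genes was represented by its brightest probe set on average over 66 arrays. The other 3 arrays without a strain label entered no comparison. Times follow the labels, which give 12 and 1008 h though the treatment protocol does not list them. In limma 3.58.1 (R 4.3.3), 27 group means and a term for batch 3 against batch 2 were fitted, with 38 residual degrees of freedom and Benjamini-Hochberg adjustment over all genes within a comparison. The model was tested on simulated arrays with independent noise. These held no batch effect and no arrays that stood apart, so the test does not cover such problems. The number of arrays limits the precision. Members and lists were chosen with earlier results of these data known. Every array is given for the members of each role with the largest FVB change (1 for roles of up to 2 members, otherwise 2) and for members called against the others; further members are shown for F1 and SPR, chosen after their values were seen. Alternatives covered the variance model, scaling, dim probe sets, the second probe set, the fold threshold, separate strains, the replicate block, batches, and arrays left out.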

Additional observations from a re-analysis of the deposited data

Results flagged for a closer look

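In 5 of 68 sets of 4 to 10 arrays, the highest or lowest array was far from the others for its gene; chance gives about 1 in 20. In F1 at 1008 h, replicate 6 was low for Dhx58 (4.50) and Oasl1 (4.86) and high for Usp18 (6.66), and replicate 5 was high for Irf7 (5.97). In untreated F1 skin, replicate 1 was high for Trim30a (6.59).

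The change at 1008 h differed between F1 and FVB by the test of the difference in Ifih1 (1.47), Irf1 (1.61), Cxcl9 (3.67), Ifit1 (2.00), Mx2 (1.92) and Gbp2 (2.21). It differed between SPR and FVB in Cxcl9 (3.78) and Usp18 (2.43), and at 12 h in Mx2 (1.40), which was not called without the 2 narrow arrays.

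Of the 3 arrays with no strain label, array 2 (labelled 6 h) had a mean member score of 1.53 and array 3 (no time) one of 0.56. Both were above the highest untreated array (0.30), which is an FVB array of batch 1. The arrays with no strain label lie in batches 2 and 3, where the highest untreated array had 0.06. Array 1 (labelled 2 h) had -0.34.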

How the results depend on the processing

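No sign reversed in any alternative. Of 103 calls, 53 were kept with any 1 array left out. With arrays centred on their medians, 1 member was lower in FVB at 2 h and 25 higher in SPR at 4 h; with cyclic loess these were 1 and 24, and F1 minus FVB at 1008 h gave 10. With no fold threshold 5 were lower in FVB at 2 h. With SPR fitted alone, 0 were called at 4 h and 0 by the F test. In batch 2 alone, F1 had 2 higher at 4 h, 2 at 6 h and 2 by the F test, and SPR 10 by the F test. Without the 2 narrow arrays F1 minus FVB at 1008 h gave 13. Without FVB controls 2 and 3, 1 was lower at 2 h, 2 higher at 6 h, 6 lower at 1008 h, and 0 differed between F1 and FVB. Without the 3 FVB arrays with high pancreas or macrophage scores, 11 were lower at 1008 h against 24 h and 16 differed between F1 and FVB.

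With 1 array left out the counts were, for FVB, 3 to 3 higher and 0 to 3 lower at 2 h, 4 to 7 higher at 6 h, 14 to 18 lower at 1008 h, 7 to 7 against 24 h and 7 to 9 against 168 h. They were 4 to 9 in F1 at 4 h, 4 to 12 at 6 h, 8 to 10 in SPR at 4 h and 3 to 7 for F1 minus FVB. The F test gave 28 to 31 in FVB, 10 to 17 in F1 and 11 to 29 in SPR, with 11 without SPR 4 h replicate 1. Where that left 1 array in a group, it was assumed to vary like the others.

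Replicate numbers did not pair the FVB arrays: over 36 pairs of groups the correlation of deviations ran from -0.364 to 0.271, and 8 of 27 arrays correlated best with their own number. With the replicate block, F1 minus FVB at 1008 h gave 3, SPR at 4 h 14 and FVB at 1008 h 19.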
